A study of Mus musculus with 9 samples.

Results

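Expression of the EGF receptor (ErbB) family and of its ligands was examined in HC11 cells, a mouse mammary epithelial line cloned from COMMA-1D cells of Balb/c origin. The genes were chosen by name as members of this family, with earlier results of these data known. They are the 4 receptor genes Egfr, Erbb2, Erbb3 and Erbb4 and the 6 ligand genes Tgfa, Epgn, Areg, Ereg, Hbegf and Nrg1, and all 10 were among the 17962 genes tested, out of 19223 genes with a probe set on the array. FoxF1-transfected cells, NFI-C2-transfected cells and wild type cells were each measured on 3 arrays, each array holding a separately grown and harvested culture. The first construct encodes FoxF1, a transcription factor of the forkhead family. The second encodes a form of nuclear factor I-C that the paper describes as stable. The methods call the control vector-expressing cells and describe the RNA as coming from pools of cells. The labels, and other parts of the paper, call the control wild type. Whether the 3 arrays of a group come from separate transfections was not given in the sources used here. The promoter that drove the constructs was not given in the sources used here. Cells of all 3 groups were cultured in medium that already held EGF (10 ng/ml per the labels), insulin (5 μg/ml) and 10% FCS. The methods give EGF in μg/ml where the labels give ng/ml, and the sources do not settle which held.

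ErbB receptors are tyrosine kinases that pair with each other when a ligand binds. EGFR binds EGF, TGF-alpha, amphiregulin, epigen, epiregulin and HB-EGF, while ErbB3 and ErbB4 bind neuregulins. ErbB2 has no known ligand of its own and acts as a partner, and ErbB3 has little kinase activity and signals through its partners. In the mammary gland EGFR and amphiregulin are needed for duct growth, ErbB4 and neuregulin 1 act in the growth and differentiation of the milk-producing lobules, and ERBB2 is amplified in a subset of human breast cancers. HC11 cells need EGF in the medium to become competent to respond to lactogenic hormones. The ligands are made as membrane proteins and are released by ADAM proteases.

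All values are log2 expression values that were deposited with a median of 0 over the 9 arrays for every probe set, and they are called centred log2 values here. The step that gave this median is not described in the sources used here. A centred log2 value of 1 is 2-fold above that median, and levels of different genes cannot be set against each other. A gene is called changed where its adjusted p is under 0.05 in the limma fit across all genes tested. In that fit 40.7% of genes were called between FoxF1 and wild type cells, 22.0% between NFI-C2 and wild type cells and 43.8% between FoxF1 and NFI-C2 cells. Each SE and interval below is from the same fit, with n = 3 arrays in each group, and the p-values measure only the spread between cultures of a line. An exact permutation test of 3 against 3 arrays cannot go below p = 0.1.

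The sequences just before the transcription start are shown for Egfr, Epgn and Tgfa, the 3 genes that were called in opposite directions in the transfected lines. They are the 250 bases upstream of the start on the sense strand, from RefSeq on GRCm38.p6, at chr11:16751953-16752202 for Egfr, chr5:91027267-91027516 for Epgn and chr6:86194972-86195221 for Tgfa. Capitals mark matches on either strand to the forkhead core TAAACA or to the nuclear factor I half-site TTGGC, whose reverse complement is GCCAA.
Egfr: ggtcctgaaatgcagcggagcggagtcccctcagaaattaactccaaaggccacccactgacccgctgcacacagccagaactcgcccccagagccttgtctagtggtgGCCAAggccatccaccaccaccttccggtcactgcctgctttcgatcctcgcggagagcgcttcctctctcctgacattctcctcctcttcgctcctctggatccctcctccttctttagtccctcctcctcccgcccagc
Epgn: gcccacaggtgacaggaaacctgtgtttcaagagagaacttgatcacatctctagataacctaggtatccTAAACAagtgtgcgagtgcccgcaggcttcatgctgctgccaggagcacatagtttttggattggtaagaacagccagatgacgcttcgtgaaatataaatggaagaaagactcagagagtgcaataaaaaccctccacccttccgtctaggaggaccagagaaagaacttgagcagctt
Tgfa: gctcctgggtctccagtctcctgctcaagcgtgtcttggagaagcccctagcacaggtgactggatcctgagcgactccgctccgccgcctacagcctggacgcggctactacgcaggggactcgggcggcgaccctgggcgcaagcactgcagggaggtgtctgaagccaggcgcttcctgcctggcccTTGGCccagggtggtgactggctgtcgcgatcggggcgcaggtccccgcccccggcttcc
The Epgn window held 1 forkhead core, 180 to 175 bases before the start, and no half-site. The Egfr window held 1 half-site 141 to 137 bases before the start and the Tgfa window 1 half-site 60 to 56 bases before it, and neither held the forkhead core. Of the 32841 windows of this length in the table, 12% held TAAACA and 41.5% held TTGGC, and the full palindromic nuclear factor I site, which joins a half-site and its reverse complement across 5 bases, was in 0.0365% and in none of these genes. No motif was found in the windows of Erbb2, Erbb4 and Areg. CG pairs numbered 19 in the Tgfa window, 11 in the Egfr window and 5 in the Epgn window, against a median of 6 over all windows. Erbb3, Nrg1, Ereg and Hbegf were not matched. These matches describe the letters only, and binding of either factor was not measured.

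The transfected genes themselves were not called higher in their own lines. Foxf1, which the array lists as Foxf1a, had centred log2 values of 0.32, 0.12 and 0.09 in FoxF1 cells, against -1.42, -0.91 and -1.46 in NFI-C2 cells and 0.01, 0.00 and -0.07 in wild type cells. The 3 FoxF1 arrays lay above the 3 wild type arrays by a mean log2 difference of 0.20, which did not pass the test (limma adjusted p = 0.35). Nfic had values of 0.19, 0.00 and 0.00 in NFI-C2 cells and 0.21, 0.11 and 0.00 in wild type cells (log2 difference -0.04, limma adjusted p = 0.757). Foxf1a was lower in NFI-C2 than in wild type cells (log2 difference -1.24, limma adjusted p = 7.6e-04) and higher in FoxF1 than in NFI-C2 cells (1.44, limma adjusted p = 8.7e-05). Whether these probe sets read RNA made from the constructs was not tested. The groups are therefore named by their labels. Markers of epithelial and mesenchymal cells differed from wild type cells in both lines, and their counts stand against 21.2% of all genes higher and 19.5% lower in FoxF1 cells and 9.19% higher and 12.8% lower in NFI-C2 cells. Of 10 luminal markers 7 were lower and 1 higher in FoxF1 than in wild type cells (median log2 difference -3.15, with Cdh1, the epithelial cadherin, at -5.82), of 8 basal markers 5 were lower and 1 higher (median -3.48), and of 10 fibroblast and mesenchymal markers 7 were higher and 0 lower (median 0.89, with the intermediate filament gene Vim at 2.44). In NFI-C2 cells the same lists had 4 lower and 0 higher (median -0.21), 0 lower and 2 higher (median 0.33), and 3 lower and 1 higher (median -0.07). Single markers moved further than these medians, with log2 differences of -3.21 for the luminal keratin gene Krt18, -1.77 for Vim and 1.23 for the basal cadherin gene Cdh3 (limma adjusted p of at most 1.8e-05). Among 5 endothelial, 5 immune and 5 adipocyte markers tested, 1 of each was higher in FoxF1 cells and 1 endothelial marker was lower, while in NFI-C2 cells 1 endothelial marker was higher. The part of these marker shifts in the results below was not tested, and in bulk RNA fewer cells of a type cannot be told apart from less RNA per cell.

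Between FoxF1 and wild type cells 7 of the 10 genes were called, against 40.7% of all genes, 3 higher (Nrg1, Epgn and Hbegf, against 21.2% of all genes) and 4 lower (Egfr, Erbb2, Erbb3 and Tgfa, against 19.5%), and all 7 differed by at least 1.5-fold, against 16.6% of all genes that were called and differed by that much. The 4 receptors had a median log2 difference of -1.17 and the 6 ligands of 0.64, where the median over all genes was 0.01. For the 5 further ErbB ligands, described below, the median was 0.00. The median size of the log2 difference was 1.06 over the 10 genes and 0.12 over all genes. Between NFI-C2 and wild type cells 6 of 10 were called, against 22.0% of all genes, 3 higher (Egfr, Tgfa and Nrg1, against 9.19%) and 3 lower (Erbb3, Epgn and Areg, against 12.8%), and only Epgn differed by at least 1.5-fold (5.22% of all genes). The median size was then 0.22 over the 10 genes and 0.07 over all genes. Between FoxF1 and NFI-C2 cells 8 of 10 were called, against 43.8% of all genes, 4 higher (24.0% of all genes) and 4 lower (19.8%), and all 8 differed by at least 1.5-fold (19.4% of all genes). The 3 comparisons use the same 9 arrays and are not independent of each other. The 10 genes were chosen with earlier results of these data known, so the counts describe them and do not test the family.

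**Figure D1:**
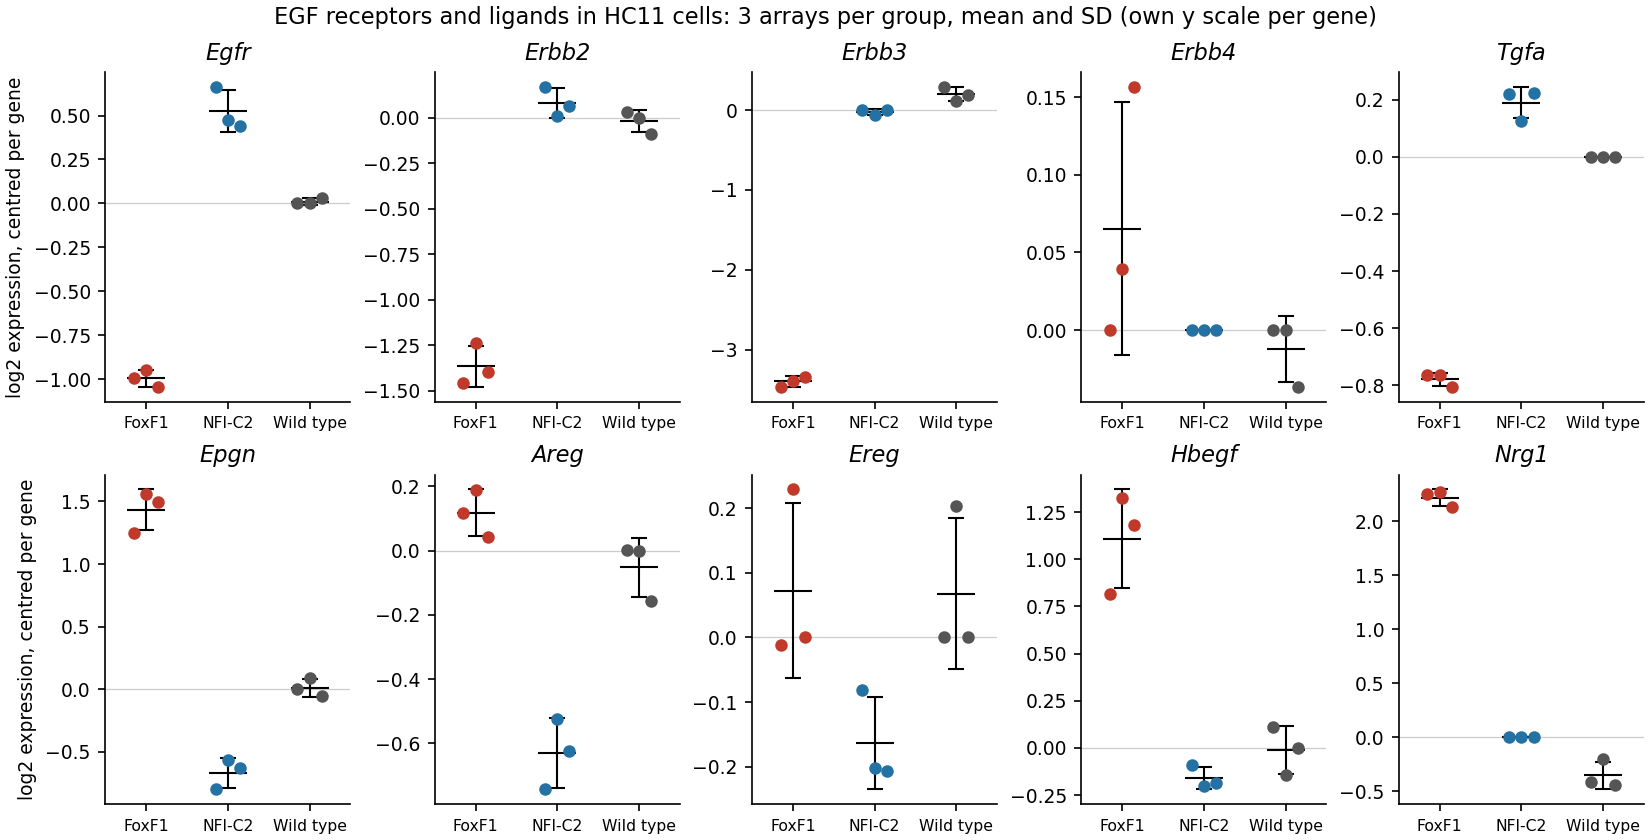
Centred log2 value (vertical axis) of each of the 10 genes in each array, 1 panel per gene, with FoxF1, NFI-C2 and wild type arrays from left to right and a bar at the mean of each group. FoxF1 arrays lie at -3.47 to -3.34 for Erbb3 and at 2.13 to 2.27 for Nrg1, apart from all other arrays, while the groups overlap for Erbb4.

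Among the receptors, Erbb3 changed most. Its centred log2 values were -3.47, -3.39 and -3.34 in FoxF1 cells, 0.00, -0.06 and 0.00 in NFI-C2 cells and 0.29, 0.11 and 0.19 in wild type cells. All FoxF1 arrays were far below the other 6. The log2 difference between FoxF1 and wild type cells was -3.60 (SE 0.051, 95% interval -3.71 to -3.48, limma adjusted p = 5.1e-09), which leaves FoxF1 cells at 8.27% of the wild type level and places Erbb3 at rank 135 of 17962 genes by size of change. NFI-C2 cells were lower than wild type cells by a small amount, -0.22 on the log2 scale (95% interval -0.33 to -0.10, limma adjusted p = 0.0203), and the arrays of these groups did not overlap. That call was lost without NFI-C2 replicate 2 (adjusted p = 0.0712), NFI-C2 replicate 3 (0.0546), wild type replicate 1 (0.0543) or wild type replicate 3 (0.0579). FoxF1 cells were also lower than NFI-C2 cells, by a log2 difference of -3.38 (limma adjusted p = 6.3e-09). The gene lies at chr10:128005702-128026708 on the minus strand of NCBIM37, the build of the array annotation, and is read by 30 probes.

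Erbb2, the receptor without a ligand of its own, fell in FoxF1 cells. The arrays gave centred log2 values of -1.46, -1.24 and -1.40 in FoxF1 cells, 0.17, 0.01 and 0.06 in NFI-C2 cells and 0.03, 0.00 and -0.09 in wild type cells. FoxF1 arrays did not overlap with the others, whereas NFI-C2 and wild type arrays did. The log2 difference was -1.35 between FoxF1 and wild type cells (SE 0.066, 95% interval -1.50 to -1.19, limma adjusted p = 2.1e-06), or 39.4% of the wild type level, and -1.44 between FoxF1 and NFI-C2 cells (limma adjusted p = 1.3e-06). Between NFI-C2 and wild type cells it was 0.10 (95% interval -0.06 to 0.25, limma adjusted p = 0.392), which did not pass the test. Erbb2 lies at chr11:98273798-98299030 on the plus strand of NCBIM37 and is read by 30 probes.

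Egfr moved in opposite directions in the transfected lines. Its centred log2 values were -0.99, -0.94 and -1.04 in FoxF1 cells, 0.66, 0.47 and 0.44 in NFI-C2 cells and 0.00, 0.00 and 0.03 in wild type cells, so that no pair of groups overlapped. FoxF1 cells had 49.8% of the wild type level (log2 difference -1.00, SE 0.058, 95% interval -1.14 to -0.87, limma adjusted p = 4.8e-06). NFI-C2 cells were 1.43-fold above wild type cells (log2 difference 0.51, SE 0.058, 95% interval 0.38 to 0.65, limma adjusted p = 6.8e-04). The direct log2 difference between FoxF1 and NFI-C2 cells was -1.52 (limma adjusted p = 4.5e-07), and the difference between the lines was thus itself past the test. Egfr lies at chr11:16652206-16813912 on the plus strand of NCBIM37 and is read by 51 probes.

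Erbb4 was the receptor with no call in any comparison. It had centred log2 values of 0.00, 0.04 and 0.16 in FoxF1 cells, 0.00 in all 3 arrays of NFI-C2 cells and 0.00, 0.00 and -0.04 in wild type cells, and all groups overlapped. The log2 difference between FoxF1 and wild type cells was 0.08 (95% interval -0.01 to 0.17, limma adjusted p = 0.164), and without FoxF1 replicate 1 it was 0.11 and called (adjusted p = 0.0492). NFI-C2 cells differed from wild type cells by 0.01 on the log2 scale (limma adjusted p = 0.911) and FoxF1 from NFI-C2 cells by 0.07 (limma adjusted p = 0.237). A value of exactly 0 is the gene's median over the 9 arrays, and 9749 of the 17962 genes tested had at least 2 arrays at 0. Erbb4 lies at chr1:68086625-69154330 on the minus strand of NCBIM37 and is read by 31 probes. Quantile normalization of the centred values shrank the receptor differences between FoxF1 and wild type cells to -1.91 for Erbb3, -0.65 for Erbb2 and -0.55 for Egfr, and all 3 stayed called (limma adjusted p of at most 3.7e-04). The same step gave -1.56 for Erbb3 and -0.79 for Erbb2 between FoxF1 and NFI-C2 cells and -0.34 for Erbb3 between NFI-C2 and wild type cells, all still called. Centred values spread more over probe sets in FoxF1 arrays (SD 0.528 to 0.539) than in NFI-C2 arrays (0.211 to 0.243) and wild type arrays (0.174 to 0.183). Quantile normalization sets the spread of all arrays equal. The part of this in the smaller differences was not tested.

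Of the ligands, Nrg1 changed most. It encodes neuregulin 1, a ligand of ErbB3 and ErbB4. Its centred log2 values were 2.25, 2.27 and 2.13 in FoxF1 cells, 0.00 in all 3 arrays of NFI-C2 cells and -0.42, -0.21 and -0.44 in wild type cells. The groups did not overlap, and FoxF1 arrays stood far above the other 6. FoxF1 cells had 5.95-fold the wild type level (log2 difference 2.57, SE 0.065, 95% interval 2.42 to 2.73, limma adjusted p = 6.5e-08), rank 324 of 17962 by size. NFI-C2 cells were 1.28-fold above wild type cells (log2 difference 0.35, 95% interval 0.20 to 0.51, limma adjusted p = 0.00693). FoxF1 cells exceeded NFI-C2 cells 4.65-fold (log2 difference 2.22, limma adjusted p = 1.2e-07). The 3 NFI-C2 values of Nrg1 are tied, which lowers the spread that the test uses. Nrg1 lies at chr8:32928500-33994616 on the minus strand of NCBIM37. The 51 probes of its set are summarised to 1 value, so forms of neuregulin 1 cannot be told apart.

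Hbegf, which encodes heparin-binding EGF-like growth factor, a ligand of EGFR and ErbB4, was higher in FoxF1 cells. Its arrays gave centred log2 values of 0.82, 1.33 and 1.18 in FoxF1 cells, -0.09, -0.20 and -0.18 in NFI-C2 cells and 0.11, -0.14 and 0.00 in wild type cells. FoxF1 arrays lay above all others, while NFI-C2 and wild type arrays overlapped. The level in FoxF1 cells was 2.17-fold that in wild type cells (log2 difference 1.12, SE 0.127, 95% interval 0.82 to 1.42, limma adjusted p = 2.3e-04) and 2.41-fold that in NFI-C2 cells (log2 difference 1.27, limma adjusted p = 9.6e-05). NFI-C2 cells differed from wild type cells by -0.15 on the log2 scale (95% interval -0.45 to 0.15, limma adjusted p = 0.502). Hbegf lies on chromosome 18 and is read by 30 probes.

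Tgfa encodes transforming growth factor alpha, an EGFR ligand, and followed Egfr in the direction of its calls. On the centred log2 scale Tgfa was at -0.77, -0.77 and -0.81 in FoxF1 cells, 0.22, 0.13 and 0.22 in NFI-C2 cells and 0.00 in all 3 wild type arrays. No pair of groups overlapped. FoxF1 cells had 58.3% of the wild type level (log2 difference -0.78, SE 0.029, 95% interval -0.85 to -0.71, limma adjusted p = 4.4e-07), and NFI-C2 cells were 1.14-fold above wild type cells (log2 difference 0.19, 95% interval 0.12 to 0.26, limma adjusted p = 0.00288). The direct log2 difference between FoxF1 and NFI-C2 cells was -0.97 (limma adjusted p = 1.2e-07). The 3 wild type values are tied at 0 and 2 of the FoxF1 values are tied with each other. These ties lower the spread that the test draws on from all 3 groups, so the SE may be too small. Tgfa lies at chr6:86145410-86225151 on the plus strand of NCBIM37 and is read by 25 probes.

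Epgn encodes epigen, an EGFR ligand, and moved opposite to Egfr and Tgfa. Its centred log2 values were 1.25, 1.56 and 1.49 in FoxF1 cells, -0.80, -0.57 and -0.63 in NFI-C2 cells and 0.00, 0.09 and -0.06 in wild type cells. The 3 groups were fully apart. FoxF1 cells had 2.68-fold the wild type level (log2 difference 1.42, SE 0.093, 95% interval 1.20 to 1.64, limma adjusted p = 9.8e-06), while NFI-C2 cells had 62.5% of it (log2 difference -0.68, 95% interval -0.89 to -0.46, limma adjusted p = 0.00177). FoxF1 cells exceeded NFI-C2 cells 4.29-fold (log2 difference 2.10, 95% interval 1.88 to 2.32, limma adjusted p = 1.0e-06).

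Areg encodes amphiregulin, the EGFR ligand of duct growth, and was lower in NFI-C2 cells. Areg stood at centred log2 values of 0.12, 0.19 and 0.04 in FoxF1 cells, -0.74, -0.52 and -0.62 in NFI-C2 cells and 0.00, 0.00 and -0.16 in wild type cells. All NFI-C2 arrays lay below the other 6. NFI-C2 cells had 67% of the wild type level (log2 difference -0.58, 95% interval -0.74 to -0.41, limma adjusted p = 9.8e-04), and FoxF1 cells 1.68-fold the level of NFI-C2 cells (log2 difference 0.75, limma adjusted p = 6.4e-05). FoxF1 arrays lay just above wild type arrays, by a log2 difference of 0.17 (95% interval 0.01 to 0.33) that did not pass the test after adjustment (limma adjusted p = 0.098).

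Ereg encodes epiregulin, a ligand of EGFR and ErbB4, and was not called in the fit of all 9 arrays. On the centred log2 scale Ereg was at -0.01, 0.23 and 0.00 in FoxF1 cells, -0.08, -0.20 and -0.21 in NFI-C2 cells and 0.00, 0.20 and 0.00 in wild type cells. FoxF1 and wild type arrays overlapped, and NFI-C2 arrays lay below both. The log2 difference was 0.01 between FoxF1 and wild type cells (95% interval -0.19 to 0.20, limma adjusted p = 1), -0.23 between NFI-C2 and wild type cells (95% interval -0.43 to -0.04, limma adjusted p = 0.0985) and 0.24 between FoxF1 and NFI-C2 cells (95% interval 0.04 to 0.43, limma adjusted p = 0.0545). After quantile normalization the NFI-C2 difference was -0.30 and called (adjusted p = 0.049), and the same step gave FoxF1 against wild type differences of 0.91 for Epgn and -0.42 for Tgfa and NFI-C2 against wild type differences of 0.99 for Nrg1, -1.35 for Epgn and -1.13 for Areg, and FoxF1 against NFI-C2 differences of 1.53 for Nrg1 and 1.29 for Areg, with no change of direction or call in these. The FoxF1 difference of Nrg1 from wild type cells was 2.52 after the step, against 2.57 in the main fit. The part of the equal spread of arrays in these changes was not tested. Against NFI-C2 cells, the FoxF1 difference of Ereg was called without wild type replicate 2 (adjusted p = 0.04) and where genes tied at their lowest value were left out (adjusted p = 0.0324).

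**Figure D2:**
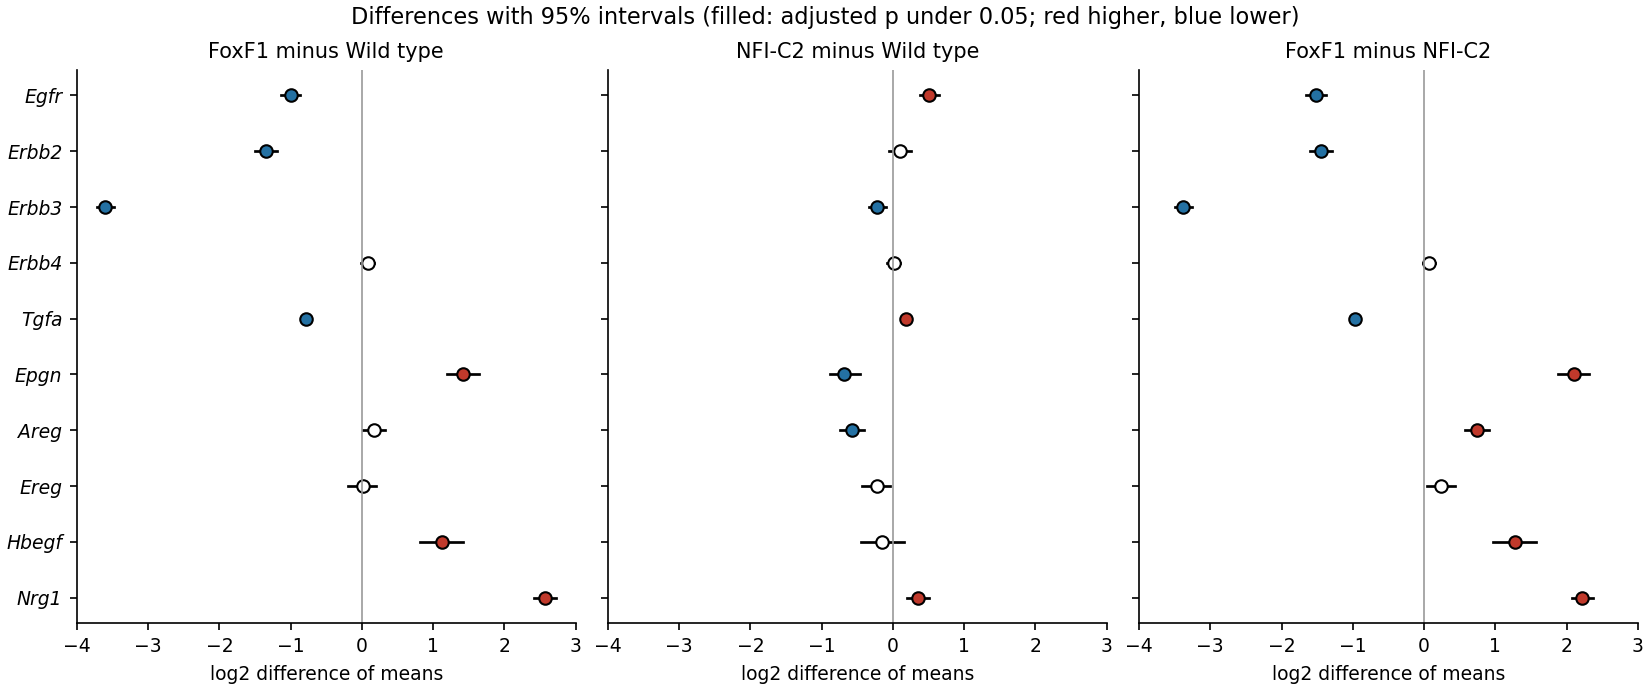
Log2 difference of group means (horizontal axis) with its 95% interval for each of the 10 genes, in FoxF1 against wild type, NFI-C2 against wild type and FoxF1 against NFI-C2 cells. Erbb3 at -3.60 and Nrg1 at 2.57 are the ends of the FoxF1 range, and Egfr, Tgfa and Epgn lie on opposite sides of 0 in the first and the second comparison.

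Of the 5 genes called in both transfected lines against wild type, Egfr and Tgfa were lower in FoxF1 and higher in NFI-C2 cells, Epgn was higher in FoxF1 and lower in NFI-C2 cells, Nrg1 was higher in both and Erbb3 was lower in both. Erbb2 and Hbegf were called in FoxF1 cells alone and Areg in NFI-C2 cells alone. For these 3 the direct comparison of FoxF1 with NFI-C2 cells was also past the test. The sources differ on whether the control carried a vector. The part of transfection itself in changes shared by both lines was not tested, here or for the pathway genes below. Arrays did not overlap for 8 of 10 genes between FoxF1 and wild type cells (46.5% of all genes), for 7 of 10 between NFI-C2 and wild type cells (33.6%) and for 9 of 10 between FoxF1 and NFI-C2 cells (48.4%).

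Epgn, Ereg, Areg and Btc, which encodes the EGFR and ErbB4 ligand betacellulin, lie within 375.4 kb on chromosome 5. On NCBIM37 Epgn lies at 5:91456490-91464243, Ereg at 5:91503648-91522672 and Areg at 5:91568625-91577458, all on the plus strand, and Btc at 5:91786287-91831939 on the minus strand. The gap is 39.4 kb from Epgn to Ereg, 46.0 kb from Ereg to Areg and 208.8 kb from Areg to Btc. These neighbours did not move as a block. In the order along the chromosome, the log2 difference between FoxF1 and wild type cells was 1.42 for Epgn, 0.01 for Ereg, 0.17 for Areg and -0.52 for Btc, and only the first and the last were called. Between NFI-C2 and wild type cells it was -0.68, -0.23, -0.58 and -0.27 in the same order, with Epgn and Areg called. All 4 were thus negative in NFI-C2 cells, although Ereg and Btc did not pass the test.

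**Figure D3:**
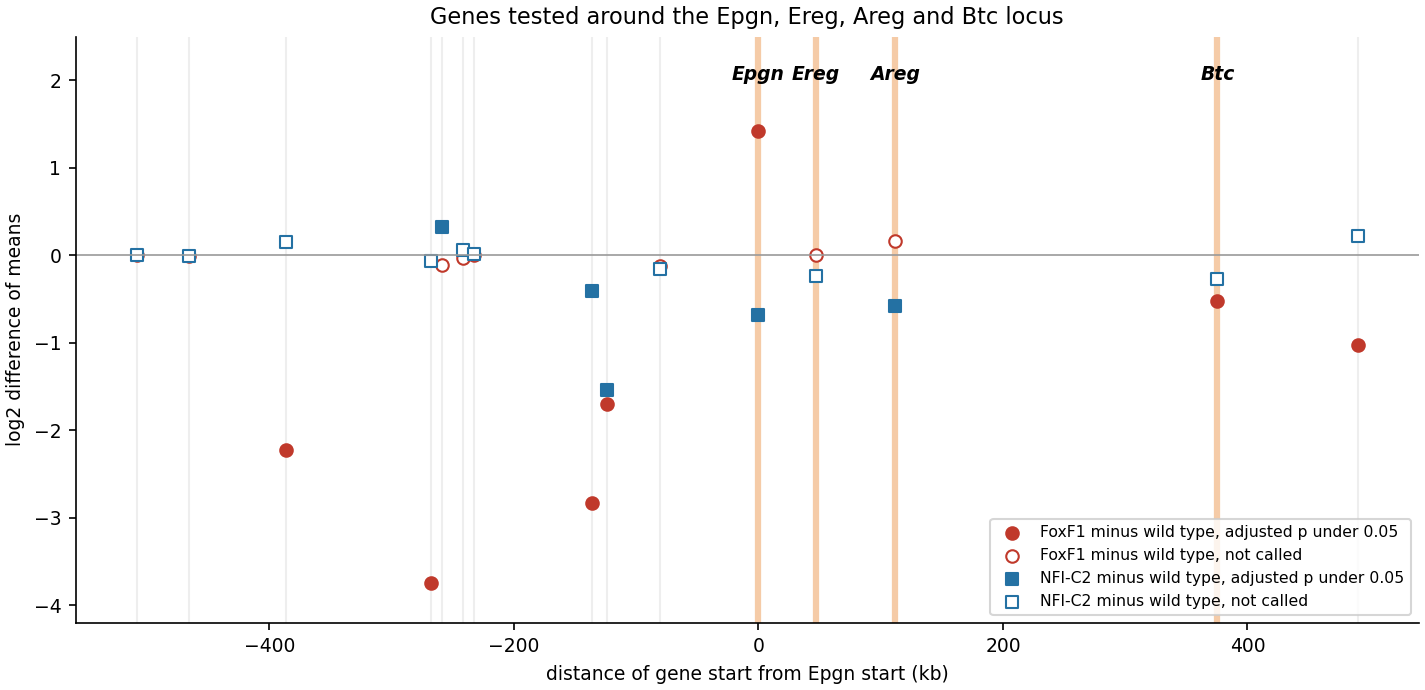
Log2 difference from wild type (vertical axis) of genes against the distance of their start from that of Epgn in kb (horizontal axis), for FoxF1 cells and NFI-C2 cells. Epgn at 1.42 is the ligand furthest above 0 in FoxF1 cells, and all 4 ligands lie below 0 in NFI-C2 cells.

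Of the 5 further ErbB ligands on the array, Btc was called, in FoxF1 cells. Its centred log2 values were -0.18, -0.16 and -0.41 in FoxF1 cells, 0.00 in all 3 arrays of NFI-C2 cells and 0.06, 0.23 and 0.51 in wild type cells, with no overlap between groups. FoxF1 cells had 69.8% of the wild type level (log2 difference -0.52, SE 0.115, limma adjusted p = 0.00775). NFI-C2 cells differed from wild type cells by -0.27 (limma adjusted p = 0.161) and FoxF1 from NFI-C2 cells by -0.25 (limma adjusted p = 0.127). The tied NFI-C2 values of Btc also lower the spread used. Egf itself, which the medium supplied as protein, had log2 differences of 0.01 in FoxF1 cells (adjusted p = 0.951) and 0.03 in NFI-C2 cells (adjusted p = 0.88) against wild type cells. Nrg2 had -0.10 in FoxF1 cells and 0.08 in NFI-C2 cells, and the neuregulin genes Nrg3 and Nrg4 stayed within 0.01 of wild type cells in both lines, all with adjusted p of at least 0.395. Egf was at exactly 0 in 5 of the 9 arrays, Nrg3 in 7 and Nrg4 in 8. Whether these genes were expressed cannot be told from such centred values.

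The proteins that release the ligands from the membrane include the ADAM proteases and their partners. The 9 genes tested for this step also include an inhibitor gene, Timp3, which is counted among the lower genes in both lines. Of the 9, 1 was higher and 4 were lower in FoxF1 than in wild type cells (median log2 difference -0.15, against 21.2% higher and 19.5% lower over all genes). In NFI-C2 cells 1 was higher and 5 were lower (median -0.24, against 9.19% higher and 12.8% lower over all genes). In FoxF1 cells Adam9, a protease able to cleave HB-EGF, was higher (log2 difference 1.24, limma adjusted p = 2.9e-07). Timp3, an inhibitor of ADAM17, was lower (-1.75, limma adjusted p = 5.0e-06), as were Rhbdf2 (-1.55, limma adjusted p = 1.8e-06) and Rhbdf1 (-0.97, limma adjusted p = 4.1e-06), whose iRhom proteins bring ADAM17 to the cell surface. In NFI-C2 cells Adam10 (-0.54, limma adjusted p = 6.1e-04), Adam17 (-0.41, limma adjusted p = 0.00987) and Timp3 (-0.44, limma adjusted p = 0.0176) were lower and Rhbdf2 was higher (0.47, limma adjusted p = 0.00323). Adam17, the main protease for TGF-alpha and amphiregulin, had a log2 difference of -0.01 in FoxF1 cells (limma adjusted p = 1).

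Of 13 genes listed as negative regulators of the receptors, 1 was higher and 6 were lower in FoxF1 cells (median log2 difference -0.06). The higher gene was Usp8 (0.49, limma adjusted p = 1.1e-05). In NFI-C2 cells 1 was higher (Lrig3) and 3 were lower (median 0.08). A place on the list does not establish a gene as a negative regulator, and the action of these genes was not tested. Over all genes 40.7% were called in FoxF1 cells (21.2% higher, 19.5% lower) and 22.0% in NFI-C2 cells (9.19% higher, 12.8% lower). The ubiquitin ligase genes Cblb (-1.39, limma adjusted p = 3.7e-06), Cblc (-1.39, limma adjusted p = 9.6e-06) and Cbl (-1.05, limma adjusted p = 3.1e-06), whose products mark activated EGFR for breakdown, were all lower in FoxF1 cells. Lrig3, of a family of membrane proteins that bind ErbB receptors, was lower in FoxF1 cells (-0.69, limma adjusted p = 4.2e-04) and higher in NFI-C2 cells (1.10, limma adjusted p = 1.3e-04), and the direct log2 difference was -1.78 (limma adjusted p = 1.7e-06). Ptprj, a receptor tyrosine phosphatase, had the largest negative log2 difference of this list in NFI-C2 cells (-1.41, limma adjusted p = 8.1e-06).

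Among 24 adaptor and signal relay genes tested, with Sos2 and Stat3 not tested, 6 were higher and 11 lower in FoxF1 cells (median log2 difference -0.15, against 21.2% higher and 19.5% lower over all genes), and 3 were higher and 6 lower in NFI-C2 cells (median -0.03, against 9.19% higher and 12.8% lower over all genes). Grb7 encodes an adaptor that binds ErbB2 and other receptor kinases, and its gene starts 9.1 kb beyond the end of Erbb2 on chromosome 11. It had a log2 difference of -3.49 in FoxF1 cells against wild type cells (limma adjusted p = 5.5e-07), against -1.35 for Erbb2, and of -0.06 in NFI-C2 cells (limma adjusted p = 0.855). The docking protein gene Gab1 (-1.18, limma adjusted p = 1.3e-06), the adaptor gene Grb2 (-0.90, limma adjusted p = 5.2e-05) and Mapk3, which encodes the kinase ERK1 (-0.71, limma adjusted p = 2.7e-05), were also lower in FoxF1 cells. In NFI-C2 cells the docking protein gene Gab2 (-0.82, limma adjusted p = 5.2e-05) and the kinase gene Braf (-0.32, limma adjusted p = 0.00369) were lower, and the EGFR substrate gene Eps8 (0.53, limma adjusted p = 8.8e-05) and Erbb2ip, which encodes an ErbB2-binding protein (0.32, limma adjusted p = 0.00567), were higher.

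Of 17 genes known to respond to the kinase ERK downstream of these receptors, 5 were higher and 7 lower in FoxF1 cells (median log2 difference -0.20, against 21.2% higher and 19.5% lower over all genes), and 1 was higher and 7 were lower in NFI-C2 cells (median -0.17, against 9.19% higher and 12.8% lower over all genes). Their members did not move one way in FoxF1 cells, where the AP-1 gene Fosl1 was higher (2.20, limma adjusted p = 6.2e-07) and the phosphatase genes Dusp4 (-1.81, limma adjusted p = 1.1e-06) and Dusp6 (-0.97, limma adjusted p = 5.0e-05) and Phlda1 (-1.76, limma adjusted p = 5.5e-06) were lower. In NFI-C2 cells Dusp4 (-1.23, limma adjusted p = 4.8e-05), Dusp6 (-0.94, limma adjusted p = 2.4e-04), Phlda1 (-0.68, limma adjusted p = 0.00291) and the Ets factor gene Etv5 (-1.15, limma adjusted p = 1.2e-04) were lower. Receptor phosphorylation and ERK activity were not measured on these arrays.

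**Figure D4:**
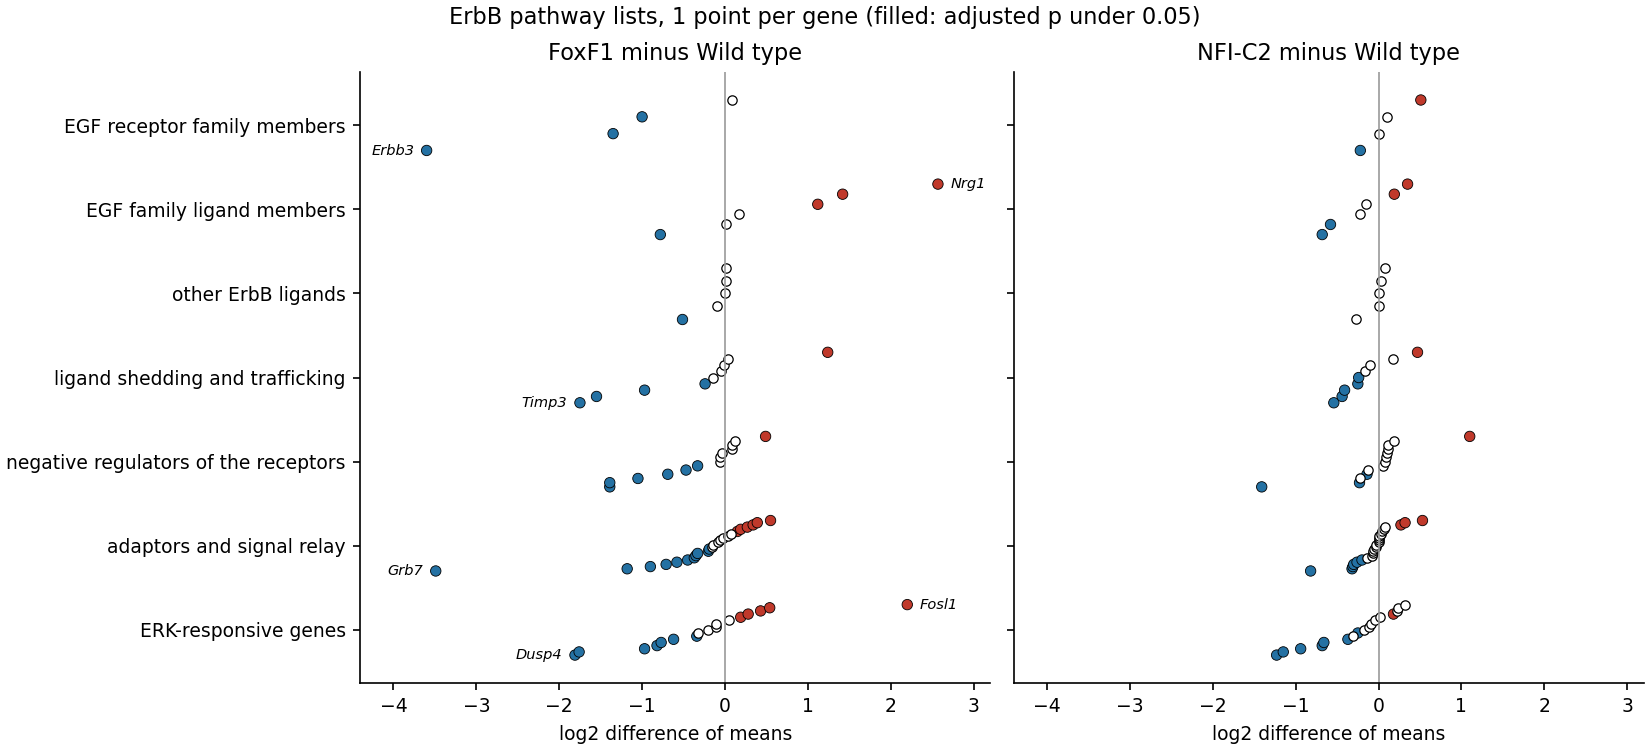
Log2 difference from wild type (horizontal axis) of each gene of the receptor, ligand and pathway lists, 1 point per gene, for FoxF1 cells and NFI-C2 cells, with filled points for an adjusted p under 0.05. Points reach from -3.60 (Erbb3) and -3.49 (Grb7) to 2.57 (Nrg1) in FoxF1 cells and from -1.41 (Ptprj) to 1.10 (Lrig3) in NFI-C2 cells.

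The genes whose values lay nearest to those of Egfr over the 9 arrays, by the root mean square of log2 differences after the wild type mean of each gene was subtracted, were Ssfa2 (0.079), Socs3 (0.081), Cd9 (0.082), Cebpa (0.097) and Gpc4 (0.1). Those nearest to Epgn were Neto2 (0.11), Plk2 (0.11), Hipk2 (0.12), Clcn5 (0.13) and Vgll3 (0.14). Predicted and RIKEN gene symbols were passed over in both searches. The lists are descriptions over 9 arrays and carry no test.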

How the data were processed

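Total RNA was hybridised to Mouse Gene ST 1.0 arrays, 9 in all and 3 for each group, with groups taken from the labels. The authors deposited RMA-normalized log2 values for 28815 probe sets (transcript clusters), and in the deposited table every probe set had a median of 0 over the 9 arrays, so only differences between groups are used. The software version was not given in the sources used here. The labels name Trizol extraction and the methods a column kit. Of the probe sets, 20727 carried 1 gene symbol, 1395 several and 6693 none. Sets with several symbols were left out, except that a set naming any of the 10 genes would be kept. For each of 19223 genes the set with most probes was taken, and 1261 genes with no variation were left out, which left 17962. Each of the 10 genes had 1 probe set. Group means were fitted with limma 3.58.1 (lmFit and eBayes, R 4.3.3), two-sided, with Benjamini-Hochberg adjustment over all genes tested and a threshold of 0.05, and no batch term. Alternatives were other scalings, annotations, variance models, a test against 1.5-fold, a replicate block and leaving out each array. Precision is limited by the 3 arrays of each group. Named genes were the 10 genes, all further ligands, up to 4 genes called per list and comparison with the largest differences, and marker genes as examples (Krt18, Vim and Cdh3 in NFI-C2 cells and Adam17 in FoxF1 cells was added after its value was seen), and the 5 nearest in pattern to Egfr and Epgn. Usp8 in FoxF1 cells was likewise added after its value was seen. The genes and lists were chosen with earlier results of these data known. Promoter windows were read from RefSeq (GRCm38.p6) and 6 of the 10 genes matched. Array positions are on NCBIM37.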

Additional observations from a re-analysis of the deposited data

How the results depend on the processing

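Over 11 other settings and 9 fits that each left out 1 array, 576 of 597 alternative values of the 10 genes kept their direction and their side of the threshold. Part of this count was fixed by the settings. The 2 deposited tables differ by at most 4.985e-08, each of the 10 genes has 1 probe set, and setting array medians to 0 left the counts of called genes unchanged. Leaving out an array of the third group does not change a log2 difference between the other 2. Tested against a change of 1.5-fold, 1939 genes were called between FoxF1 and wild type cells, 323 between NFI-C2 and wild type cells and 2263 between FoxF1 and NFI-C2 cells. Of the 10 genes, 0 were then called in NFI-C2 cells against wild type (0 higher, 0 lower; limma, against 6 in the test against no change), while the 7 of FoxF1 cells were called. Ereg, with a log2 difference of 0.01 between FoxF1 and wild type cells, turned to -0.06 after quantile normalization (adjusted p = 0.692), -0.07 without FoxF1 replicate 2, -0.03 without wild type replicate 1 and -0.03 without wild type replicate 3, within a range of -0.07 to 0.07 over the arrays left out. Erbb4 in NFI-C2 against wild type cells fell just under 0 (0.00 at 2 decimals) without wild type replicate 3 and at most 0.02 without any other. The cause was not tested. Areg between FoxF1 and NFI-C2 cells was not called against 1.5-fold (adjusted p = 0.179), and Ereg in that comparison was called where genes tied at their lowest value were left out (adjusted p = 0.0324).

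Leaving out each array in turn gave 6638 to 7129 called genes between FoxF1 and wild type cells, 3061 to 3863 between NFI-C2 and wild type cells and 7311 to 7710 between FoxF1 and NFI-C2 cells, and 7 to 8, 5 to 6 and 8 to 9 of the 10 genes. Deviations of same-numbered arrays correlated weakly, at -0.00419 to 0.18 over 9 pairs, 2 of them over 0.1. For arrays with different numbers the range was -0.195 to 0.0997. The highest correlation of an array was with a same-numbered one for 5 of the 9 arrays. Whether the replicate numbers mark a pairing was not tested. With the replicate number as a block, 7390, 4031 and 7929 genes were called in these comparisons, and of the 10 genes only the call of Ereg between FoxF1 and NFI-C2 cells changed (log2 difference 0.24, adjusted p = 0.046). The file headers used here name no scan or hybridization batch, so no batch block was run. Areg has no value under the platform annotation.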

Other observations

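On NCBIM37 the stretch of chromosome 5 that holds Epgn, Ereg and Areg also holds Rassf6, which encodes a protein of the RASSF family, and genes of CXC chemokines, which attract neutrophils. These were named after their values were seen. Between FoxF1 and wild type cells the log2 difference was -3.74 for Cxcl5 (limma adjusted p = 9.1e-09), -2.83 for Cxcl1 (limma adjusted p = 1.6e-07), -1.70 for Cxcl2 (limma adjusted p = 5.5e-06) and -2.22 for Rassf6 (limma adjusted p = 1.3e-06), whereas Ppbp, Cxcl3 and Cxcl15 were not called (-0.11, -0.03 and 0.00). Epgn, at 1.42, was the gene of the stretch plotted along the chromosome that was called higher in FoxF1 cells. Between NFI-C2 and wild type cells Cxcl2 had -1.54 (limma adjusted p = 5.2e-05), Cxcl1 had -0.41 (limma adjusted p = 0.0117), Cxcl5 had -0.06 (limma adjusted p = 0.604) and Ppbp, the other way, had 0.33 (limma adjusted p = 0.036).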
